A study of Mus musculus with 12 samples.

Results

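The 10 genes described here restrain MAP kinase signalling and were followed in normal mouse bone marrow and in 3 leukemias. They were taken by name as Dusp1, Dusp2, Dusp4, Dusp5, Dusp6, Spry1, Spry2, Spry4, Spred1 and Spred2, and all 10 are among the 35976 genes of the count table. Of these, 9 passed the low-count filter that left 15334 genes for testing, and Spry4 did not. RNA was sequenced from CD45.2+ cells sorted from the bone marrow of C57BL/6 mice, CD45.2 being an allelic form of CD45, the product of Ptprc. The 12 libraries form 4 groups of 3. These are normal marrow of genotype CD45.2(+) (WT), and leukemias of genotype CD45.2(+) BRD9-NUTM1 (BN1), CD45.2(+) MLL-AF9 (MA9) and CD45.2(+) MLL-ENL (ME). The labels list no treatment for any group. MLL-AF9 and MLL-ENL are fusions of the histone methyltransferase MLL with partners of the transcription elongation machinery, and BRD9-NUTM1 joins a chromatin remodelling subunit to a germ-line protein. The labels do not give how the fusions were introduced, the age of the mice, or whether libraries within a group are separate animals. The p-values therefore refer to the spread between libraries alone, which may be technical.

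MAP kinases relay signals from growth factor and cytokine receptors through Ras, Raf and MEK to ERK, and from stress through JNK and p38. ERK activity induces genes that shut the pathway down again. Dual-specificity phosphatases (Dusp) remove the activating phosphates from the kinases themselves, whereas Sprouty (Spry) and Spred proteins act higher up, around Ras and Raf. Transcripts of several of these genes, Dusp6 and Spry4 in particular, are commonly read as a gauge of ERK output, and in myeloid cells the pathway lies downstream of receptors such as KIT, FLT3 and the colony-stimulating factor receptors.

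The 250 bases before the annotated start of 3 of the phosphatase genes are shown because these genes fell to different degrees in the 3 leukemias and differ in the letters of this window. They are RefSeq sequences, found for 8 of the 10 members (not for Dusp4 and Spry4), of the mm10 assembly (GRCm38.p6), 5′ to 3′ on the strand of the gene. Capitals mark the cyclic AMP response element TGACGTCA, its part TGACG, and the CArG box bound by serum response factor, on either strand, the full element containing the short part.
Dusp1 promoter (chr17:26508473-26508722, minus strand): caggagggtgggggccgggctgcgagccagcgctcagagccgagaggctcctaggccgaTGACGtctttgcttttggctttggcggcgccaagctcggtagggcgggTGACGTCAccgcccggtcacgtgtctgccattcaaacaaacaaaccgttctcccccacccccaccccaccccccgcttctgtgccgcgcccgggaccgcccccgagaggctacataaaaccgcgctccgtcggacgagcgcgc
Dusp5 promoter (chr19:53528895-53529144, plus strand): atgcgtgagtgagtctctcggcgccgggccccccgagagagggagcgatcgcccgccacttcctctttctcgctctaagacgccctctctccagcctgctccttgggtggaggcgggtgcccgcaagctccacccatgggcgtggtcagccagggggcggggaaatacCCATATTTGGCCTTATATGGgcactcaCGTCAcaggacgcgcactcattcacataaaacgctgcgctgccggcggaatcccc
Dusp6 promoter (chr10:99262981-99263230, plus strand): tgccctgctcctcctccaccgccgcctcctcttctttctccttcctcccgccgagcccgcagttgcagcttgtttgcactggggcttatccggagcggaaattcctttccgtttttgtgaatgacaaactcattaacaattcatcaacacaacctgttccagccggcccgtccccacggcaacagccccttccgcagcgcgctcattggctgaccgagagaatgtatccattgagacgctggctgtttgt
In the Dusp1 window the full element begins 143 bases before the start, and a further TGACG begins 191 bases before it. Of the 8 members with an entry, Dusp1 was the one that held the full element. In the Dusp5 window 2 CArG boxes lie side by side, beginning 82 and 72 bases before the start, and TGACG lies on the other strand 55 bases before it. Of 27025 promoters searched over the same length, 1.62% held the full element, 17.9% TGACG and 1.40% a CArG box. The Dusp6 window held none of these letters, nor the AP-1 motif TGANTCA or the ETS motif CCGGAAG, which were in 6.87% and 7.05% of all promoters. For ETS only the letters CCGGAAG were searched, and other forms of an ETS site were not. Of the windows not shown, that of Spred2 held TGACG on the other strand, beginning 51 bases before the start. Those of Dusp2, Spry1, Spry2 and Spred1 held none of these motifs. A match describes the letters only. The 3 windows shown were picked with the falls known, and a link of letters to falls was not tested.

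Library totals ran from 18292636 to 25732049 counts. Levels are given as CPM, counts scaled to a common library size with TMM, a method that corrects library totals for differences in composition. Sets of marker genes show how far the groups differ in cell content. The 10 markers of mature neutrophils summed to between 56574 and 59681 CPM in normal marrow, against 4385 to 4633 for BN1, 533 to 574 for MA9 and 278 to 326 for ME. Erythroid markers reached at least 33613 CPM in WT and at most 33.0 in a leukemia library, and B cell markers at least 1214 against at most 20.6. Immature myeloid markers were at 1767 to 1872 CPM in WT and 11480 to 22228 in the leukemias. Of these 9 markers, 7 were higher and 2 lower in BN1 than in WT, 8 and 1 in MA9, and 7 and 2 in ME. In bulk RNA fewer cells of a type and less RNA per cell cannot be told apart, and for every difference below, from WT or between leukemias, the part of cell content was not tested. Mouse Nutm1 averaged 0.158 CPM in normal marrow, and 0.882 (BN1), 6.27 (MA9) and 0.975 (ME) in the leukemias, and the labels do not say whether the fusion constructs carry mouse sequence. ME replicate 3 stood apart from the other ME libraries, with a mean chi-square per gene of 29.8 and 32.6 against them, where other pairs of replicates gave 1.97 to 7.01.

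The members were lower in the leukemias as a rule, with Spry2 as the clear exception (the plot of levels by library). In BN1 against WT, 7 of the 9 tested members fell and 1 rose, where 40.8% of all tested genes fell and 38.4% rose (edgeR quasi-likelihood test, Benjamini-Hochberg adjusted p under 0.05 over all tested genes). Called in either direction were 79.2% of all genes, and for 80.3% the library values of the groups did not overlap, as for 8 members. In MA9 against WT 7 fell and 1 rose, against 40.8% and 39.3% of all genes, 80.1% being called in either direction, and 9 members had no overlap against 80.9% of genes. In ME against WT 6 fell and 2 rose, against 40.2% and 39.0%, with 79.2% called in either direction, and 8 had no overlap against 79.8%. The median log2 fold change of the 9 members was -2.07 in BN1, -1.498 in MA9 and -1.15 in ME, where that of all tested genes was -0.01 in each comparison. Dusp4 passed the filter through its WT libraries only and so had to differ, which makes these counts a description. The 3 comparisons share the WT libraries.

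**Figure D1:**
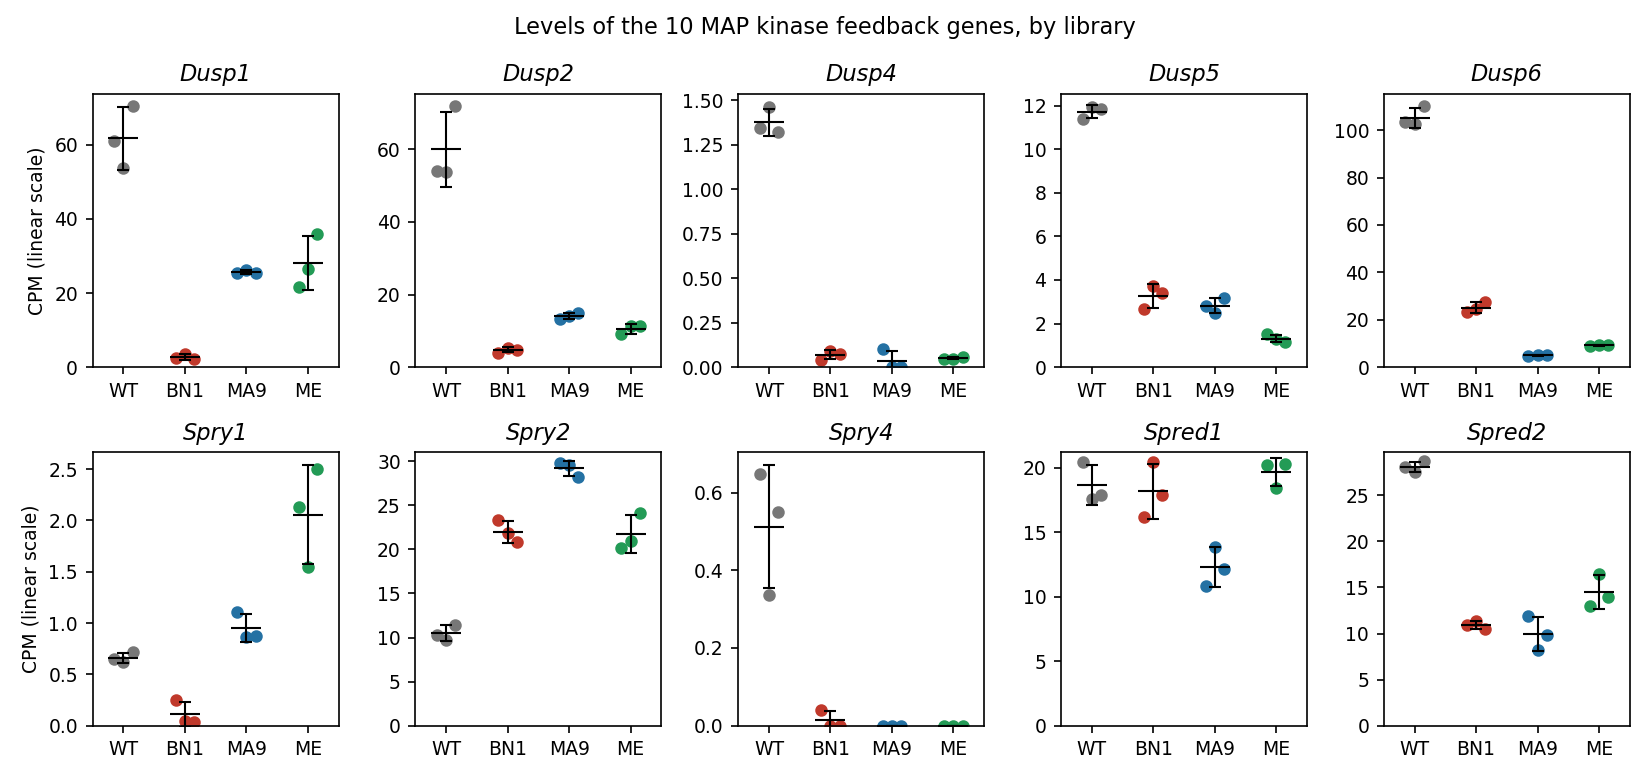
CPM of each of the 10 genes on a linear axis starting at 0, by group. Dots are libraries, and bars give the mean and SD of 3 libraries. Every leukemia library lies below every WT library for Dusp1, Dusp2, Dusp4, Dusp5, Dusp6, Spry4 and Spred2, and above it for Spry2.

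Dusp1 (MKP-1; chromosome 17, from 26505591 to 26508472, 4 exons) encodes an inducible nuclear phosphatase of p38, JNK and ERK and is an early response gene. Its level was 61.1, 53.7 and 70.5 CPM in the WT libraries, 2.43, 3.55 and 2.14 in BN1, 25.4, 26.3 and 25.5 in MA9, and 21.7, 26.4 and 36.0 in ME. BN1 was far below the other leukemias, which overlapped with each other. Dusp1 fell by 4.52 ± 0.25 on the log2 scale in BN1 (SE, adjusted p = 3.8e-10 in edgeR), with differences of -1.26 ± 0.16 in MA9 (adjusted p = 9.2e-06) and -1.15 ± 0.16 in ME (adjusted p = 2.2e-05). In BN1 it was 9.59-fold lower than in MA9 and 10.4-fold lower than in ME (adjusted p = 3.6e-08 and 2.7e-08 in edgeR). MA9 minus ME was -0.12 (95% interval -0.44 to 0.21). The highest ME value came from ME replicate 3, and without that library MA9 minus ME was 0.09.

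Dusp2 (PAC-1; chromosome 2, from 127336159 to 127338377, 4 exons) encodes a nuclear phosphatase known from activated lymphocytes and other leukocytes. Its WT libraries gave 54.1, 53.8 and 71.9 CPM, those of BN1 4.03, 5.40 and 4.83, those of MA9 13.4, 14.02 and 14.9, and those of ME 9.04, 11.3 and 11.4. All 4 groups were separate, in the order WT, MA9, ME, BN1. Dusp2 fell, with log2 differences from WT of -3.66 ± 0.13 for BN1, -2.09 ± 0.11 for MA9 and -2.50 ± 0.12 for ME (adjusted p = 6e-19, 5.7e-15 and 3.1e-16 in edgeR). BN1 was below MA9 by a factor of 2.97 and below ME by a factor of 2.23 (adjusted p = 2.1e-10 and 1.1e-07 in edgeR). MA9 exceeded ME by 0.41 ± 0.13 (adjusted p = 0.0097 in edgeR), a call that was lost without ME replicate 1 (0.31, adjusted p = 0.074). Markers of T and NK cells, among which Dusp2 is known to be expressed, summed to 283 to 300.5 CPM for WT, 141 to 147 for BN1, 22.6 to 26.9 for MA9 and 6.98 to 9.34 for ME. Over the 3 BN1 libraries Nkg7 alone had 10450 counts, while the defining T cell gene Cd3e had 1 count.

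Dusp4 (MKP-2; chromosome 8, from 34807610 to 34819894, 4 exons), another nuclear phosphatase induced by ERK, was near the limit of detection outside WT. It gave 27, 26 and 24 counts in the WT libraries, 1, 2 and 2 in BN1, 2, 0 and 0 in MA9, and 1 in each ME library, so that both MA9 counts came from replicate 1. No leukemia library came near the WT range of 1.32 to 1.46 CPM. The fold was 43.8 in MA9 (95% exact counting interval 11.7 to 368) and 27.8 in ME (9.18 to 138), and the fitted log2 difference in BN1 was -4.21 ± 0.74 (adjusted p = 6.3e-08 in edgeR). These intervals cover counting error only. Differences of Dusp4 between leukemias were not detectable at this depth.

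Dusp5 (chromosome 19, from 53529145 to 53541809, 4 exons) encodes a nuclear phosphatase specific for ERK. WT libraries stood at 11.4, 11.9 and 11.9 CPM, BN1 at 2.67, 3.73 and 3.41, MA9 at 2.81, 2.50 and 3.16, and ME at 1.499, 1.27 and 1.17. Here ME was the lowest group, and BN1 and MA9 overlapped. Dusp5 fell in BN1 (-1.84 ± 0.15), MA9 (-2.06 ± 0.16) and ME (-3.15 ± 0.20), with edgeR adjusted p of 7.1e-12, 1.5e-12 and 2.2e-15. ME was 2.47-fold below BN1 and 2.13-fold below MA9 (adjusted p = 2e-06 and 9.3e-05 in edgeR). BN1 minus MA9 was 0.21 (95% interval -0.13 to 0.55). GENCODE annotates an antisense gene over Dusp5, and since the labels do not state the strand setting of the counting, reads of the pair cannot be told apart.

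Dusp6 (MKP-3, on chromosome 10 from 99263231 to 99267489, 3 exons) encodes a cytoplasmic phosphatase specific for ERK. Its WT libraries stood at 103, 102 and 110.2 CPM. Its WT level of 37.7 ± 1.52 CPM per kilobase did not differ beyond the spread from that of Dusp2 (37.1 ± 6.43), and the mean of Dusp1 was 31.0 ± 4.22. BN1 libraries gave 23.4, 24.3 and 27.6 CPM, MA9 4.72, 5.31 and 4.96, and ME 8.95, 9.16 and 9.56. The groups were fully separate, with BN1 retaining most and MA9 least among the leukemias. Dusp6 fell in all 3 leukemias, with log2 differences of -2.07 ± 0.07 for BN1, -4.39 ± 0.09 for MA9 and -3.51 ± 0.08 for ME (adjusted p = 6.8e-21, 3.7e-26 and 1e-24 in edgeR). BN1 was 5.02-fold above MA9 and 2.73-fold above ME, and MA9 was 1.84-fold below ME (adjusted p = 1.2e-18, 7.8e-15 and 9.1e-08 in edgeR). For Dusp1 and Dusp2, in contrast, BN1 was the lowest group. Per kilobase of transcript, the ratio of the Dusp6 level to the Dusp1 level was 1.23 ± 0.124 (SD, n = 3) for WT, 6.97 ± 2.14 for BN1, 0.138 ± 0.00564 for MA9 and 0.243 ± 0.0524 for ME.

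**Figure D2:**
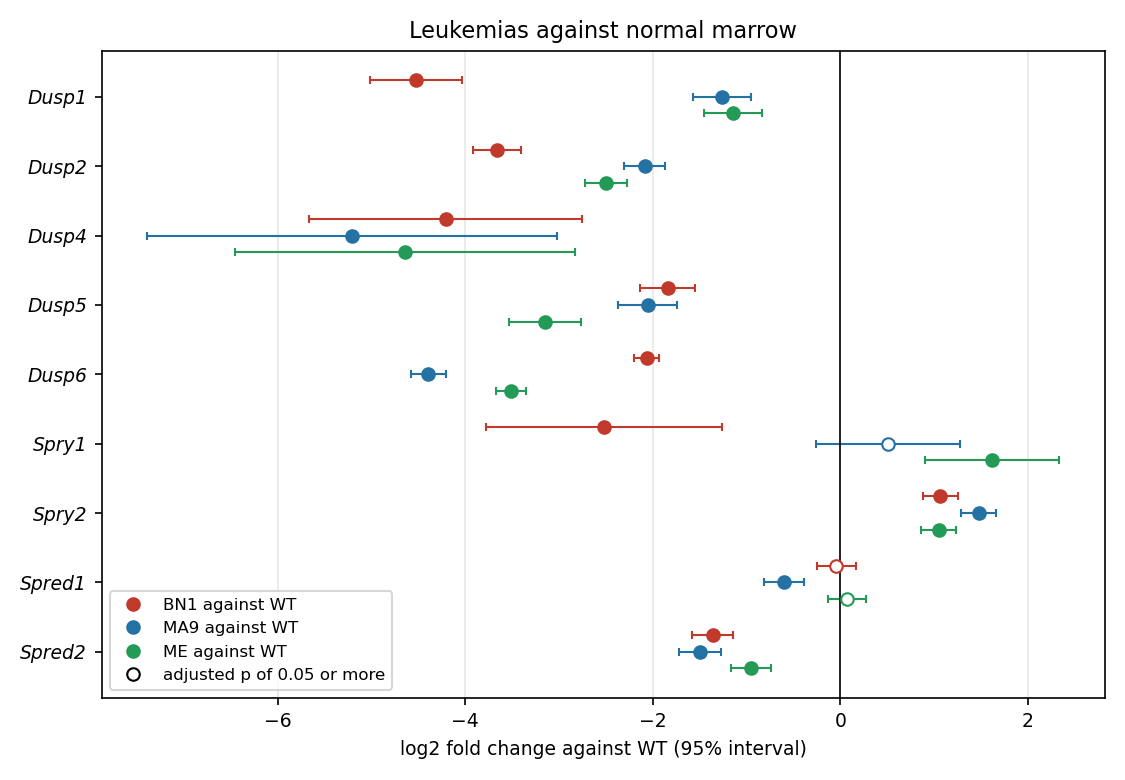
Log2 fold change of the 9 tested genes in each leukemia against WT, with 95% intervals from the edgeR fit. Filled dots passed an adjusted p of 0.05. In BN1 Dusp1 lies farthest from 0 (-4.52). In MA9 and ME Dusp4, which rests on 2 and 3 leukemia counts, lies farthest (-5.21 and -4.64), followed by Dusp6 (-4.39 and -3.51), while Spry2 lies to the right of 0 in all 3 leukemias.

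Among the Sprouty genes, whose proteins block the path from receptors to ERK, Spry2 (chromosome 14, from 105891947 to 105896819, 2 exons) was higher in the leukemias. WT libraries gave 10.3, 9.74 and 11.5 CPM, BN1 23.3, 21.8 and 20.8, MA9 29.8, 29.6 and 28.2, and ME 20.1, 21.0 and 24.2. All leukemia libraries exceeded all WT libraries, and MA9 exceeded the other leukemias. Spry2 rose by 1.06 ± 0.10 in BN1, 1.47 ± 0.09 in MA9 and 1.05 ± 0.10 in ME (log2 scale, adjusted p = 4.9e-11, 3.2e-14 and 9e-11 in edgeR). MA9 was 1.33-fold above BN1 and 1.34-fold above ME (adjusted p = 0.00011 and 0.00018 in edgeR), and BN1 minus ME was 0.02 (95% interval -0.15 to 0.19). Per kilobase Spry2 ranked 5 among the 10 members in WT, at 5.03 ± 0.422 CPM per kilobase. It had the highest mean of the members in BN1 (10.5 ± 0.610) and MA9 (13.99 ± 0.404), and lay after Dusp1 in ME (10.4 ± 1.02 against 14.1 ± 3.65), where the libraries of the 2 genes overlapped.

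Spry1 (chromosome 3, from 37639947 to 37644599, 2 exons) was scarce in every group but differed widely between the leukemias. It gave 0.647, 0.619 and 0.717 CPM in WT, 0.247, 0.0450 and 0.0383 in BN1, 1.11, 0.863 and 0.875 in MA9, and 2.13, 1.54 and 2.50 in ME. The groups did not overlap, BN1 being lowest and ME highest, although the BN1 values rest on 6, 1 and 1 counts. Spry1 fell in BN1 (-2.52 ± 0.64, adjusted p = 0.00019 in edgeR) and rose in ME (1.62 ± 0.36, adjusted p = 0.00015). In MA9 the difference from WT was 0.51 (95% interval -0.26 to 1.28) and did not pass the test. BN1 minus MA9 was -3.03 ± 0.62 (adjusted p = 8.1e-06 in edgeR). ME exceeded BN1 by a fitted factor of 17.7 and MA9 by 2.16 (adjusted p = 7.5e-09 and 0.0069 in edgeR). Of the 8 BN1 counts 6 came from replicate 1, and without that library the log2 difference of BN1 was -3.81 from WT, -4.32 from MA9 and -5.43 from ME, each 2.44 times larger as a fold. A further gene is annotated on the opposite strand of Spry1, with the same limit as for Dusp5.

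Spry4 (chromosome 18, from 38586247 to 38601347, 2 exons) was detected in WT at 13, 6 and 10 counts and was all but absent from the leukemias. BN1 libraries gave 1, 0 and 0 counts, and MA9 and ME libraries none. With 3 counts per group as the floor, Spry4 was at least 11-fold lower in MA9 and at least 10.5-fold lower in ME. In BN1, whose 1 count also lies under that floor, the plain ratio of counts was 37.6-fold (95% exact counting interval 6.24 to 1540). This ratio was taken without the floor and cannot be ranked against the bounds for MA9 and ME. Differences of Spry4 between leukemias were not detectable at this depth. Without a low-count filter edgeR gave adjusted p of 0.00011, 2.1e-05 and 2.8e-05 for BN1, MA9 and ME against WT. Genes annotated on the opposite strand overlap Spry4 as well.

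The Spred proteins recruit the Ras GTPase activator neurofibromin to the membrane. Spred1 (chromosome 2, from 117121071 to 117182279, 7 exons) was the member closest to its WT level, except in MA9. Its WT libraries gave 20.5, 17.6 and 17.9 CPM, with 16.2, 20.5 and 17.9 in BN1, 10.8, 13.9 and 12.1 in MA9, and 20.2, 18.4 and 20.3 in ME. Only the MA9 libraries lay outside the range of the others. Spred1 fell in MA9 (-0.60 ± 0.11, adjusted p = 1.5e-05 in edgeR), and MA9 was 1.47-fold below BN1 and 1.59-fold below ME (adjusted p = 4.6e-05 and 9.6e-06 in edgeR). BN1 minus WT was -0.04 (95% interval -0.25 to 0.16) and ME minus WT was 0.07 (-0.14 to 0.28).

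Spred2 (chromosome 11, from 19924442 to 20024026, 6 exons) gave 28.0, 27.5 and 28.7 CPM in WT, 10.9, 11.4 and 10.5 in BN1, 11.9, 8.20 and 9.86 in MA9, and 13.01, 16.5 and 14.003 in ME. Every leukemia library was below every WT library, and ME was the highest of the leukemias. Spred2 fell, with log2 differences of -1.36 ± 0.11 for BN1, -1.498 ± 0.11 for MA9 and -0.95 ± 0.11 for ME (adjusted p = 7.2e-12, 1.5e-12 and 8.2e-09 in edgeR). ME was 1.33-fold above BN1 and 1.46-fold above MA9 (adjusted p = 0.0027 and 0.00039 in edgeR), and BN1 minus MA9 was 0.14 (95% interval -0.10 to 0.37). The ratio of Spred1 to Spred2 per kilobase was 0.315 ± 0.0269 (SD, n = 3) for WT, 0.787 ± 0.0764 for BN1, 0.606 ± 0.187 for MA9 and 0.651 ± 0.109 for ME.

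Between the leukemias the members did not move as a block. BN1 had 2 members higher and 4 lower than MA9, where 32.8% and 34.9% of all tested genes were higher and lower and 67.7% called in either direction, and 6 members had no overlap against 70.1% of genes. Against ME it again had 2 higher and 4 lower, where the shares of all genes were 31.8% and 33.0% (64.7% in either direction), and 6 had no overlap against 66.9%. MA9 had 3 higher and 4 lower than ME, against 20.2% and 20.4% of all genes (40.6% in either direction), and 7 had no overlap against 48.6%. Dusp6 was higher in BN1 than in either MLL leukemia, and Dusp1, Dusp2 and Spry1 were lower in BN1 than in either. The 10 monocyte and macrophage markers, none of them at 0, summed to 15727 to 16541 CPM for BN1, 3636 to 3886 for MA9 and 5178 to 5476 for ME (WT 11243 to 11613). Of these markers 8 were higher and 2 lower in BN1 than in MA9, and 9 higher and 1 lower than in ME. Of the 10 mature neutrophil markers, 10 were higher and 0 lower in BN1 than in MA9. Against ME, 9 of them were higher and 0 lower. The part of either marker set in the differences of the members was not tested. Dusp5 was higher in BN1 than in ME, as it was in MA9.

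**Figure D3:**
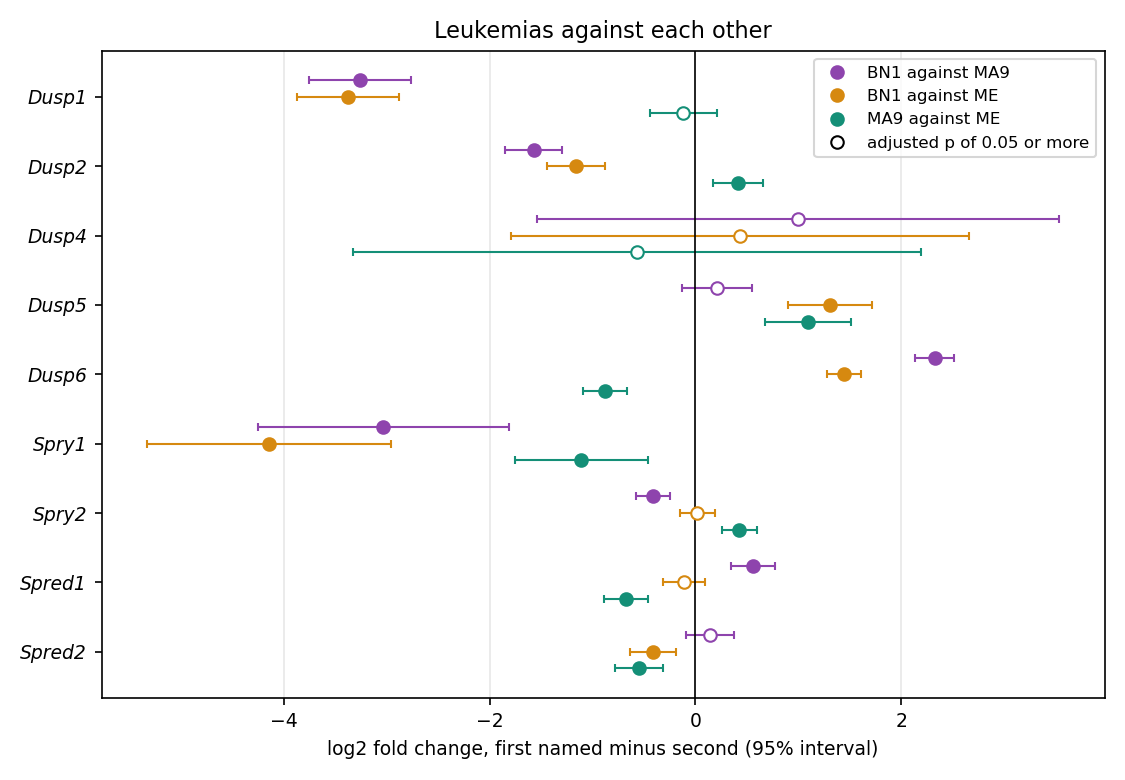
Log2 fold change of the 9 tested genes between leukemias, first named minus second, with 95% intervals from the edgeR fit. Filled dots passed an adjusted p of 0.05. For BN1 against MA9 and ME, Dusp1 lies at -3.26 and -3.38 and Dusp6 at 2.33 and 1.45. Dusp4, with 2 to 5 counts a group, has the widest intervals.

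The 5 Dusp members belong to a class of 10 catalytically active MAP kinase phosphatases, which also holds Dusp7 and Dusp9, cytoplasmic and directed at ERK, and Dusp8, Dusp10 and Dusp16, directed at JNK and p38. Summed per kilobase, these transcripts came to 137 ± 13.6 CPM per kilobase for WT (SD, n = 3), 36.6 ± 1.79 for BN1, 41.9 ± 1.14 for MA9 and 39.6 ± 3.93 for ME. The lowest WT library (128) was far above the highest leukemia library (43.4), and ME overlapped both BN1 and MA9, which were separate from each other (at most 37.7 against at least 41.1). Dusp1, Dusp2, Dusp4 and Dusp5, the inducible nuclear members, held 53.6% ± 2.39 of it for WT, 15.4% ± 2.05 for BN1, 54.5% ± 1.03 for MA9 and 53.1% ± 5.49 for ME. Every BN1 library (13.9% to 17.7%) was below every other library, the lowest of which was at 48.1%. These shares are given as a description and were not tested.

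Dusp7 took 12.8% ± 1.29 of the sum for WT, 52.3% ± 1.78 for BN1, 36.6% ± 2.08 for MA9 and 33.9% ± 4.17 for ME. Its own level was 55.9 ± 7.23, 61.5 ± 1.05, 49.3 ± 3.41 and 42.8 ± 2.05 CPM in those groups. Dusp6 held 27.7% ± 1.56 for WT, 24.5% ± 1.53 for BN1, 4.27% ± 0.298 for MA9 and 8.36% ± 0.575 for ME. Dusp16 was 2.39 ± 0.19 log2 units higher in BN1 than in MA9 and 2.60 ± 0.20 higher than in ME (adjusted p = 9.1e-13 and 3.9e-13 in edgeR). Genes annotated on the opposite strand overlap Dusp16 and Dusp8, with the same limit as for Dusp5. Dusp8, which passed the filter through WT only, had 542 counts over the WT group (9.71 ± 0.702 CPM). It had 15, 1 and 5 counts over the BN1, MA9 and ME groups.

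**Figure D4:**
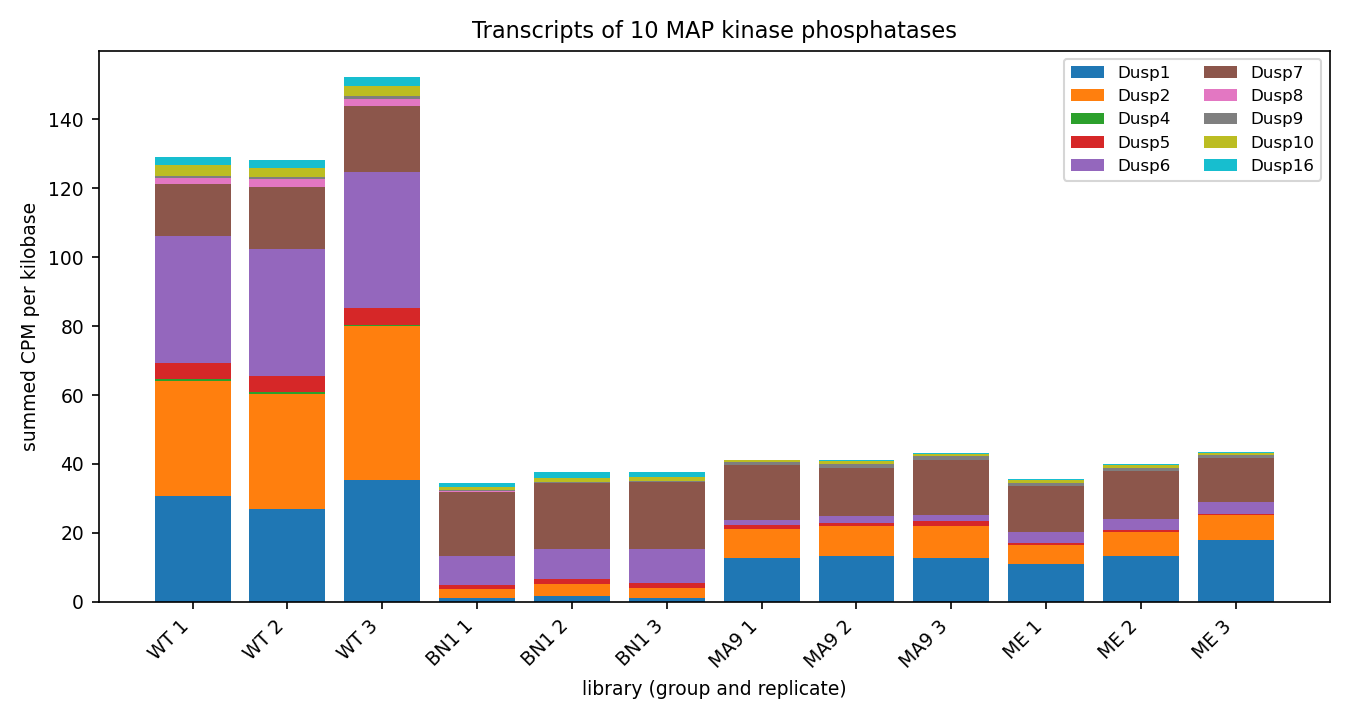
Stacked bars of CPM per kilobase of transcript for 10 MAP kinase phosphatase genes in each library, from 0. WT libraries reach 128 to 152, and leukemia libraries 34.6 to 43.4, with Dusp7 the widest band in BN1 (52.3% on average) and Dusp1 a thin one (3.71%).

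Genes around the members were counted in lists of known pathway genes, to be read against the 79.2%, 80.1% and 79.2% of all tested genes called in BN1, MA9 and ME, of which about equal parts rose and fell. A list gene that passed the low-count filter through WT only had to fall. Of 18 genes known to be driven by ERK, 16 were tested, and 14 fell and 2 rose in BN1, 13 fell and 1 rose in MA9, and 14 fell and 1 rose in ME. Their median log2 fold changes were -1.62, -2.51 and -1.89. Egr3, Epha4 and Etv1, 3 of the 16, passed the filter through WT only. Myc, the growth regulator, rose in BN1, MA9 and ME (0.58 ± 0.06, 1.51 ± 0.06 and 1.67 ± 0.06). Etv5, an ETS factor that follows ERK activity, fell from 11.8 CPM in WT to 0.333, 0.796 and 0.452. Fos went from 39.5 CPM in WT to 168 in BN1, where it rose (2.09 ± 0.21, adjusted p = 1.4e-05 in edgeR), and stood at 35.7 in MA9 and 53.8 in ME without passing the test. The WT libraries varied widely for Fos, from 26.6 to 53.6 CPM, and those of BN1 ran from 160 to 173. Fos and Dusp1, both immediate early genes, thus differed from WT in opposite directions in BN1.

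The kinases and adaptors of the cascade itself had medians nearer 0. Of 23 tested, 8 rose and 11 fell in BN1, 4 rose and 15 fell in MA9, and 8 rose and 10 fell in ME, with medians of -0.14, -0.21 and -0.10. The share of them called is near that of all genes. The adaptor Gab1 was the largest rise in BN1 (2.31 ± 0.10), and Rras the largest fall in MA9 and ME (-2.11 ± 0.14 and -1.44 ± 0.13). Other brakes on Ras and ERK, 19 tested, had 4 higher and 9 lower in BN1, 4 and 12 in MA9, and 4 and 12 in ME. Among them Rasal1 passed the filter through WT only. Ptpn7, a tyrosine phosphatase of ERK in blood cells, rose to 317, 377 and 370 CPM in BN1, MA9 and ME from 122 in WT, and Dab2ip, a GTPase activator of Ras, fell from 59.6 to 3.38, 3.75 and 18.8 CPM.

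Receptors upstream of Ras, 13 tested, had 5 higher and 8 lower in BN1, 4 and 7 in MA9, and 2 and 9 in ME, and 3 of them passed the filter through WT only. The median log2 fold changes of these receptors were -1.78, -0.46 and -0.85. Csf1r, the receptor of macrophage colony-stimulating factor, was at 572 CPM in BN1 against 155 in MA9 and 199 in ME, and Flt3 at 0.108 against 105.8 and 18.04. The other Dusp, Spry and Spred genes, 12 tested, had 2 higher and 7 lower in BN1, 4 and 5 in MA9, and 4 and 7 in ME. Among them Dusp8 passed the filter through WT only. JNK and p38 kinases and their activators, 16 tested, had 6 higher and 7 lower in BN1, 5 and 9 in MA9, and 4 and 9 in ME. Among them Mapk11 and Mapk12 passed the filter through WT only. Immediate early genes that respond to cell handling, 16 tested, had 4 higher and 9 lower in BN1, 4 and 11 in MA9, and 3 and 11 in ME, with medians of -0.80, -1.75 and -1.31. Dusp1 is known to respond to handling as well, and the part of sorting in its differences, or in those of Fos, was not tested.

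**Figure D5:**
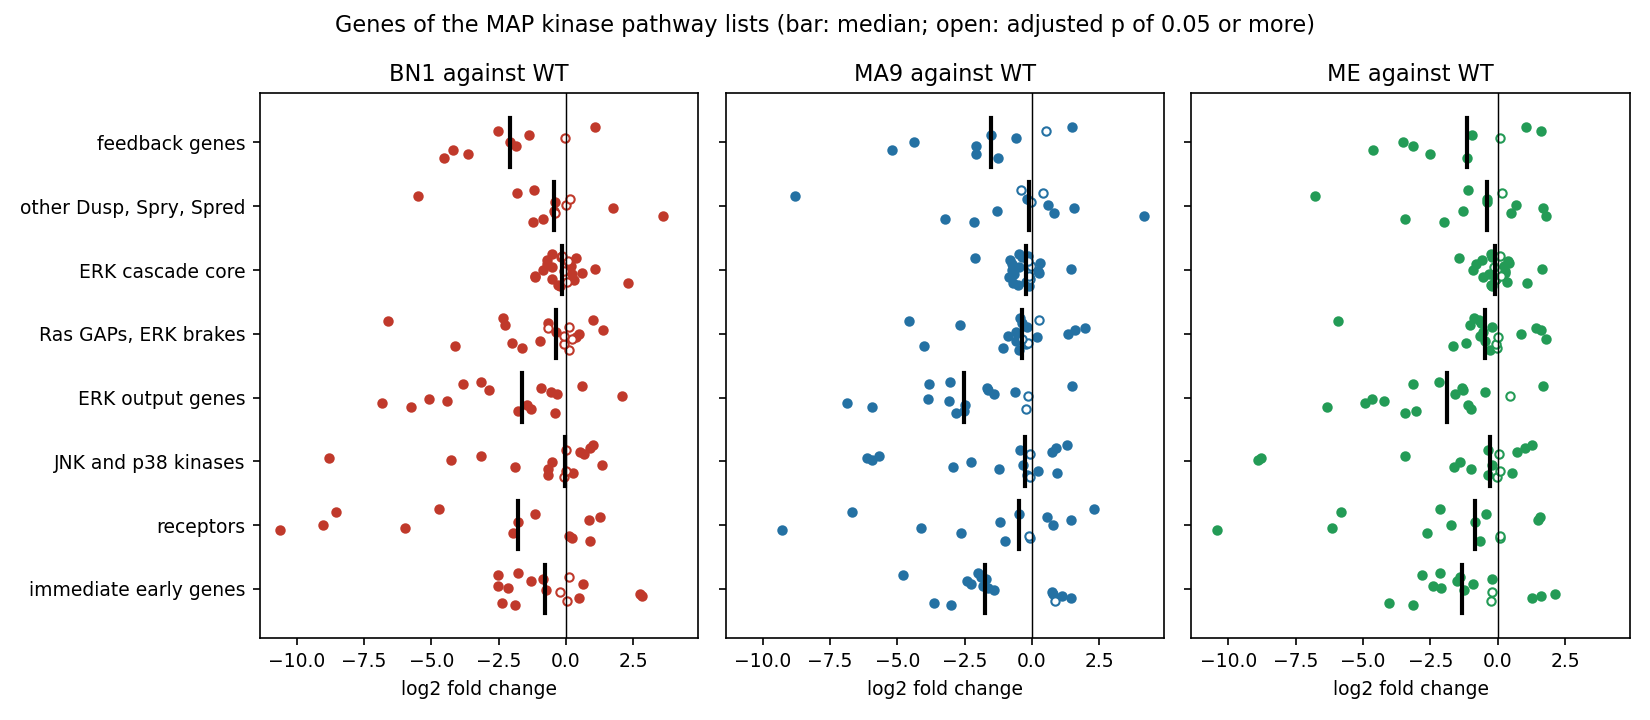
Log2 fold change against WT of every tested gene in the 10 feedback genes and 7 pathway lists, one panel per leukemia. Dots are genes, open where the adjusted p was 0.05 or more, and bars are medians. The medians of the feedback genes (-2.07, -1.498 and -1.15) and of the ERK output genes (-1.62, -2.51 and -1.89) lie left of those of the cascade core (-0.14, -0.21 and -0.10). So do those of the receptors (-1.78, -0.46 and -0.85) and of the immediate early genes (-0.80, -1.75 and -1.31). The other brakes on Ras and ERK (-0.38, -0.36 and -0.47) also lie left of the core in each panel. The other Dusp, Spry and Spred genes (-0.44, -0.11 and -0.39) do not in MA9. The JNK and p38 list (-0.03, -0.24 and -0.27) does not in BN1.

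Among 12941 named genes, those whose pattern over the 12 libraries was closest to Dusp6 were Phospho1, Sdc3 and Ifitm3, at a root mean square difference of centred log2 CPM of 0.22, 0.27 and 0.29. For Dusp2 the closest were Zfp821 (0.16) and Ublcp1 (0.19), followed by the kinase gene Pim2 (0.21). For Spry2 they were Top3b, Zak and Rpp14 (0.09, 0.11 and 0.11), and for Dusp1 Samd10, Zfp296 and Mterf2 (0.30, 0.31 and 0.34). These are descriptions over libraries that share their groups.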

How the data were processed

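The authors deposited raw read counts per gene, which entered the fit unchanged, for 12 libraries. Per the submitters' processing notes, the tools were HISAT2, featureCounts and DESeq2 and the genome build was mm10. Versions, annotation, strand use and treatment of multiply mapped reads: not given in the sources used here. Libraries were stranded and polyadenylated-RNA-selected, per the labels' protocols.

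One edgeR quasi-likelihood model (edgeR 4.0.16, R 4.3.3; robust, TMM factors 0.928 to 1.051, filterByExpr) was fitted to all libraries, without a block, with calls at an adjusted p under 0.05 (Benjamini-Hochberg, 15334 tested genes). SE came from the fitted weights, and 95% intervals are 1.96 SE. Positions are RefSeq GRCm38.p6, and lengths those of the GENCODE M21 principal transcript, matched by symbol (all 10 members). The fit was also run on simulated data with 200 changed genes, and the outcome of that run is not given here. Alternatives were DESeq2 1.42.0, limma-voom (limma 3.58.1), 3 scalings, 2 filters, the 2 groups compared alone, a replicate block, a 2-fold minimum, and each library left out. Figures used matplotlib 3.10.9.

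The members and lists were chosen with earlier results of these data known. Named were all members, up to 2 called genes per direction of each list whose higher group reached 5 CPM, and up to 3 nearest patterns. Etv5, Fos, Csf1r, Flt3, Ptpn7, Dab2ip and the phosphatases of the summed class were printed for more groups than that rule selects. Nkg7 and Cd3e were named after their values were seen.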

Additional observations from a re-analysis of the deposited data

Results flagged for a closer look

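Spry1 lay on opposite sides of normal marrow in BRD9-NUTM1 and MLL-ENL leukemia, lower in the former and higher in the latter. The direct test of BN1 against ME gave a log2 difference of -4.14 ± 0.61 (edgeR adjusted p = 7.5e-09), from 8 counts over the 3 BN1 libraries and 123 over the 3 ME libraries. Without BN1 replicate 1, which held 6 of those 8 counts, it was -5.43. This difference between leukemias was tested directly, and no other tested member had 2 leukemias called on opposite sides of WT.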

How the results depend on the processing

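The number of members called against WT changed little when a single library was left out, from 7 to 8 lower for BN1, 7 to 8 for MA9 and 6 to 7 for ME, with 1, 1 and 2 higher throughout, the added member being Spry4, which then passed the low-count filter through its WT libraries only and so had to be lower, so that the rise says nothing of stability. Between leukemias, BN1 kept 2 higher and 4 lower members against MA9 and against ME, and MA9 had 2 to 3 higher and 4 lower than ME. The counts that moved by over 1.5 times did so with fewer genes tested or a stricter question. With a mean of at least 5 CPM required, BN1 had 4 members lower than WT, ME had 1 higher than WT, and BN1 had 1 higher than ME. With a test for a change of over 2-fold, the members higher were 0 in BN1 and 1 in ME against WT, 1 in BN1 against MA9, and 1 in BN1 against ME with 2 lower, and MA9 against ME had 0 higher and 0 lower. Of 1167 values of single members under alternatives, 1140 kept their direction and their side of the threshold, 19 lost their call and 8 changed sign. Those 8 belong to differences that had not been called. Spred1 in BN1 against WT was 0.082 with library totals only, and from -0.117 without BN1 replicate 2 to 0.041 without BN1 replicate 1, and in ME against WT it was -0.0029 with the 5 CPM filter. Spry2 in BN1 against ME ran from -0.039 without ME replicate 1 to 0.096 without ME replicate 3, and Dusp1 in MA9 against ME from -0.272 without ME replicate 1 to 0.092 without ME replicate 3. The cause of these was not tested. Library totals alone moved the median of all genes in MA9 against WT from -0.01 to 0.16, and in MA9 against ME called 3888 higher and 2509 lower genes against 3095 and 3130 with TMM. A replicate block called 7 members lower and 1 higher in BN1 against WT, as without the block, and changed no call of a member. Same-numbered libraries of different groups had correlated deviations of -0.08 to 0.06, 4 of 12 libraries correlating best with their own number, so the numbers were not taken as pairs. Depth limits Dusp4, Spry1 and Spry4, which rest on 0 to 8 counts a group in at least 1 leukemia.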
